A study of Oryza sativa with 12 samples.

Results

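The loci described here were nearly silent in the rice peduncle before heading and expressed after it in both cultivars studied. They were chosen by their deposited group values, under a fixed rule that asked for an FPKM of 5 or more after heading in both Swarna and Pokkali and an FPKM below 1 before heading in both. FPKM counts the fragments mapped to a transcript, divided by its length in kilobases and by the size of the library. Of 53380 loci with a row of their own in the table, 19126 reached 1 FPKM in at least 1 group and are called expressed loci here, and 76 met the rule, which is 0.397% of the expressed loci. A locus can have several rows in the assembly, and then the row of highest mean FPKM stood for it. The rule used all 4 group values, so the NP and EP levels of these 76 loci describe the choice and carry no test.

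The 4 groups were non-elongating peduncles (NP) of Swarna and of Pokkali, collected a few days after the panicle emerged, and elongating peduncles (EP) of the same cultivars, collected a few days before. Both are indica cultivars grown in the field, Swarna with short and Pokkali with tall stems. Each group had 3 libraries, but the table holds 1 value per locus and group in which these libraries are combined. These values carry no replicate error and no read counts, and the study's own read totals were not used here. Its differential expression calls entered only through its gene lists, which hold genes that it called different between these samples. Every difference below is a ratio of group values with no replicate check. In a whole peduncle, more cells of a type and more RNA per cell cannot be told apart.

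The peduncle is the last internode of the rice stem and carries the panicle. Before heading it grows by cell division and expansion above its base and pushes the panicle out of the flag leaf sheath. Once the panicle is out, elongation stops, and the stalk supports the panicle and conducts water and sugars to the filling grain. Transcription factors of the NAC and WRKY families and genes of the jasmonate pathway are among those known to act in maturing, stressed and senescing plant tissue.

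In Swarna NP the 76 loci ranged from 5.12 to 3852 FPKM with a median of 15.9, against 0 to 0.975 FPKM with a median of 0.267 in Swarna EP. In Pokkali NP they ranged from 5.01 to 3621 FPKM with a median of 7.82, against 0 to 0.996 FPKM with a median of 0.276 in Pokkali EP. In Swarna NP 51 of the 76 loci were at 10 FPKM or more and 14 at 100 or more, against 31 and 3 in Pokkali NP. Both NP values were at 10 FPKM or more in 23 loci, at 50 or more in 4 and at 100 or more in 2, whereas 17 loci stayed below 10 in both. The summed FPKM of the 76 loci was 9612 in Swarna NP and 27.6 in Swarna EP, and to 5154 in Pokkali NP and 26.3 in Pokkali EP. This was 1.58% of the summed FPKM of all loci in Swarna NP and 1.03% in Pokkali NP.

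**Figure D1:**
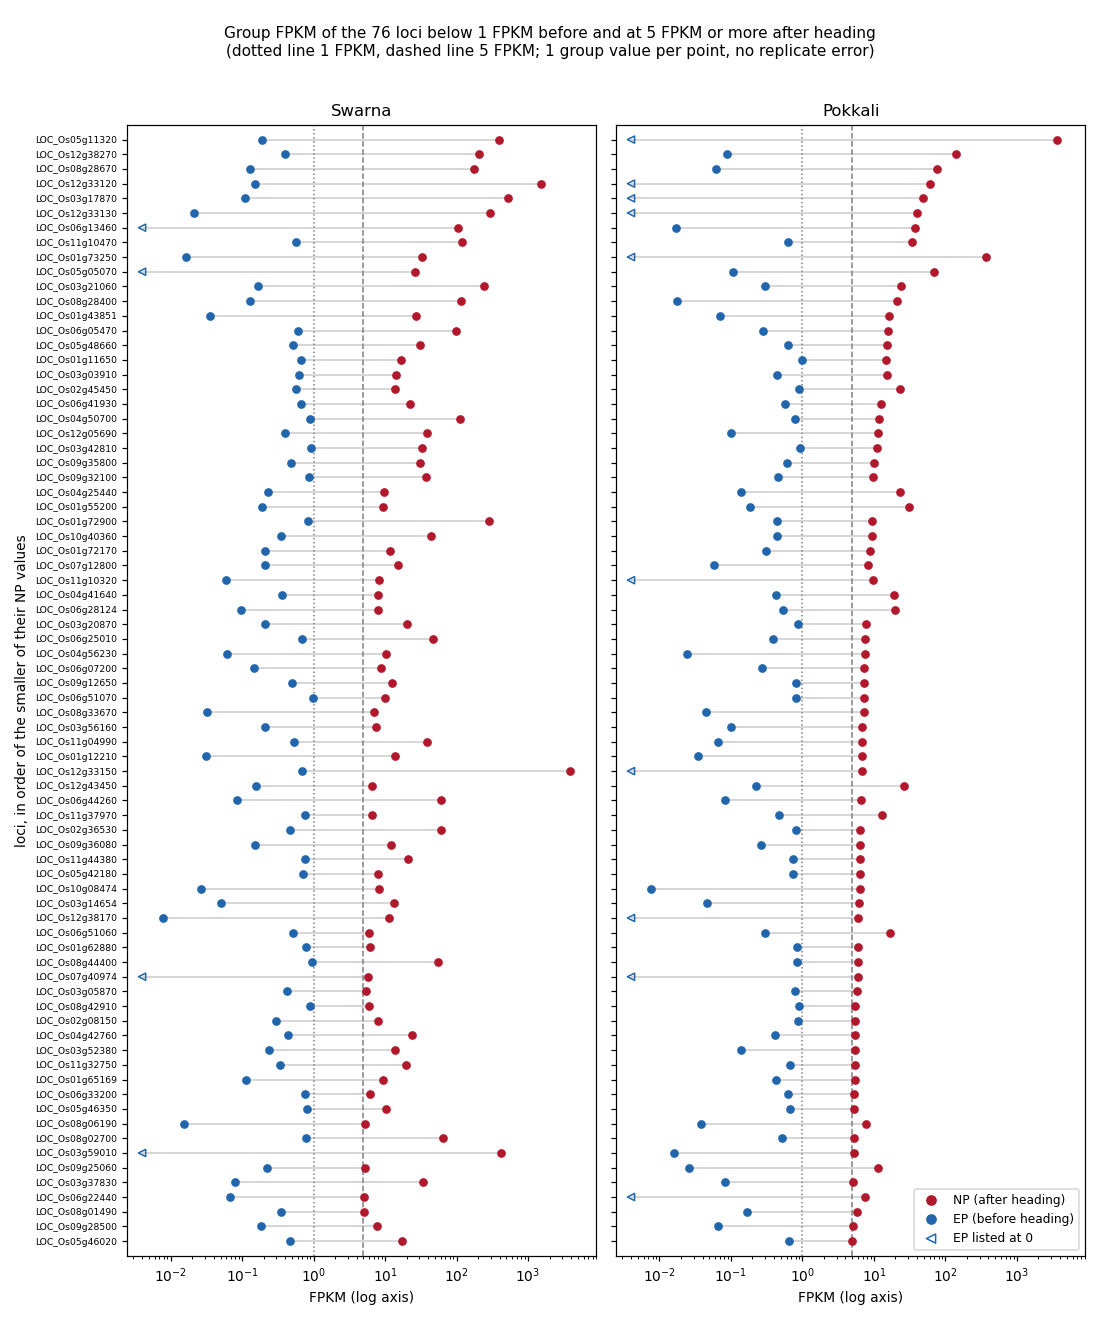
FPKM on a log axis of each of the 76 loci, Swarna on the left and Pokkali on the right, in order of the smaller of the 2 NP values, with NP in red, EP in blue and open triangles for EP values listed at 0. Only 2 loci were at 100 FPKM or more in both NP groups, and the EP values run from 0 up to 0.996, close under the 1 FPKM line.

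The name "switched on" holds for some of these loci more than for others. Before heading, 17 of the 76 were below 0.1 FPKM in both cultivars, whereas 34 had at least 1 EP value of 0.5 or more. A value above 0 was listed in both EP groups for 63 of the 76. LOC_Os07g40974 was the only locus listed at 0 in both EP groups, and after heading it had 5.71 FPKM in Swarna and 5.91 in Pokkali. In all, 13 loci were listed at 0 in at least 1 EP group, 4 in Swarna and 10 in Pokkali, which is 17.1% of the 76, against 3.36% of the expressed loci. The rule asked for low EP values, so nothing is read from that share.

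Where the EP value was above 0, the ratio of NP to EP could be given without an added constant. In Swarna it had a median of 69.4 over 72 loci and was lowest at 6.53. In Pokkali it had a median of 31.4 over 66 loci and was lowest at 6.14. The ratio reached 100 or more in 27 loci in Swarna and 20 in Pokkali, and it was below 10 in 4 and 15. After adding 0.5 to every FPKM, which understates the ratio of loci with low values, the median log2 ratio of NP to EP was 4.37 in Swarna and 3.65 in Pokkali, against 0.03 and 0.05 over all expressed loci. The ratio was larger in Swarna for 55 of the 76 loci and larger in Pokkali for 21. Over all expressed loci, NP was at least 2-fold above EP in 26.6% in Swarna and in 15.9% in Pokkali. With the 4 groups scaled to the same summed FPKM, the median log2 ratios of the 76 loci were 3.83 and 3.53. The larger ratio in Swarna is therefore not read as particular to these loci.

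The thresholds cut through a continuous range of values. Just inside the NP minimum, LOC_Os05g46020 had 5.01 FPKM in Pokkali NP. Just outside it, LOC_Os05g27580 had 4.89 FPKM in Pokkali NP, although its Swarna values were 111 in NP and 0.401 in EP. Just inside the EP maximum, LOC_Os01g11650 had 0.996 FPKM in Pokkali EP, and just outside it, LOC_Os07g34070 had 1.01.

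LOC_Os05g11320 (chr5:6393869-6396107) was the most abundant of the 76 in Pokkali, with 3621 FPKM in NP and a value of 0 in EP. In Swarna it had 391 FPKM in NP and 0.190 in EP. It was the 10th most abundant of all named loci in Pokkali NP and supplied 70.2% of the summed FPKM of the 76 loci there. LOC_Os12g38270 (chr12:23501361-23502386) was the other locus above 100 FPKM in both cultivars. It had 208 FPKM in NP and 0.393 in EP of Swarna, and 139 in NP and 0.0894 in EP of Pokkali, so its 2 NP values lay within 2-fold of each other.

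The next 6 loci by their smaller NP value had more FPKM in Swarna NP than in Pokkali NP, where they ranged between 33.6 and 77.1 FPKM. A pair of them lay side by side on chromosome 12 and are described with their position. LOC_Os08g28670 (chr8:17510084-17511691) had 175 FPKM in NP and 0.130 in EP of Swarna, and 77.1 in NP and 0.0620 in EP of Pokkali. LOC_Os03g17870 (chr3:9957010-9959450) had 518 FPKM in NP and 0.110 in EP of Swarna, and 49.1 in NP of Pokkali, where it was listed at 0 in EP. LOC_Os06g13460 (chr6:7406037-7408609) had 103 FPKM in Swarna NP and was listed at 0 in Swarna EP. In Pokkali it had 37.8 FPKM in NP and 0.0173 in EP. LOC_Os11g10470 (chr11:5710546-5711249) had 120 FPKM in NP and 0.560 in EP of Swarna, and 33.6 in NP and 0.622 in EP of Pokkali. The lists of the study give none of these loci a name, and neither the table nor the reference used describes their products.

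The lists of the study named 9 of the 76 loci, 8 as transcription factors and 1 as a jasmonate gene. The 8 factors are 10.5% of the 76 loci, against 4.08% of the expressed loci and 9.89% of the 2073 expressed loci with NP at least 2-fold above EP in both cultivars. The last share is the closer comparison, since the study put factors in its list because they differed between these samples, and the list is therefore not independent of the direction counted. The number of factors moved with the rule, to 3 with an NP minimum of 10 FPKM or an EP maximum of 0.5 and to 11 after quantile normalization. Of the 780 expressed loci in that list, 1.03% met the rule, against the 0.397% above. Nothing is read from this difference, since the list was chosen from genes that differed between these same samples.

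NAC proteins are plant-specific transcription factors with known members in secondary wall formation, stress responses and senescence. Of 49 listed NAC loci, 3 met the rule. LOC_Os03g21060 (chr3:11973970-11976426) exhibited the highest level of all 9 named loci, with 244 FPKM in NP and 0.168 in EP of Swarna, and 23.9 in NP and 0.304 in EP of Pokkali. The level after heading was thus about 10 times as high in Swarna as in Pokkali (10.2-fold). LOC_Os06g51070 (chr6:30893477-30894523) had 10.1 FPKM in NP and 0.975 in EP of Swarna, and 7.16 in NP and 0.806 in EP of Pokkali, close under the EP maximum in both. LOC_Os08g33670 (chr8:21014458-21029084) showed nearly the same values in both cultivars, with 7.06 FPKM in NP and 0.0324 in EP of Swarna, and 7.27 in NP and 0.0446 in EP of Pokkali. Its span of 14627 bases also overlaps a pair of differently named loci. Across the listed NAC loci, 22 (44.9%) had NP at least 2-fold above EP in both cultivars and 6 (12.2%) at least 2-fold below. Over all 815 listed factors, which the study chose for differing between these samples, these shares were 25.3% and 16.9%, and over all expressed loci 10.8% and 11%. The factor LOC_Os07g37920 narrowly failed the rule, with 123 FPKM in NP and 1.16 in EP of Swarna, and 24.9 in NP and 0.0949 in EP of Pokkali.

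WRKY proteins bind the W-box element and are known from defence and leaf senescence, and 2 of 43 listed loci met the rule. LOC_Os05g46020 (chr5:26682472-26684208) had 17.4 FPKM in NP and 0.462 in EP of Swarna, and 5.01 in NP and 0.644 in EP of Pokkali. LOC_Os09g25060 (chr9:14975932-14977713) ran the other way between the cultivars after heading, with 5.22 FPKM in NP and 0.226 in EP of Swarna, and 11.4 in NP and 0.0255 in EP of Pokkali. In the whole WRKY list, 23 loci (53.5%) had NP at least 2-fold above EP in both cultivars and 1 (2.33%) at least 2-fold below, beside the 25.3% and 16.9% of all listed factors. Taken in 1 cultivar at a time, the rule was met by 7 of the 43 listed WRKY loci in Swarna and 8 in Pokkali. Of all 815 listed factors, 52 met it in Swarna and 36 in Pokkali, and of the expressed loci 2.49% and 1.16%. The listed factors, WRKY loci included, were chosen for differing between these samples, so a comparison with the expressed loci is not independent.

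The other 3 factors belong to 3 further families. LOC_Os06g41930 (chr6:25158295-25164627) of the PLATZ family, zinc-binding proteins with affinity for AT-rich DNA, had 22.2 FPKM in NP and 0.659 in EP of Swarna, and 12.5 in NP and 0.576 in EP of Pokkali. LOC_Os02g45450 (chr2:27652935-27654206) of the AP2-EREBP family, which includes the ethylene-responsive and dehydration-responsive factors, had 13.7 FPKM in NP and 0.571 in EP of Swarna, and 23.4 in NP and 0.885 in EP of Pokkali. LOC_Os02g08150 (chr2:4315275-4316961) of the C2C2-CO-like family, relatives of the photoperiod regulator CONSTANS, had 8.05 FPKM in NP and 0.299 in EP of Swarna, and 5.44 in NP and 0.870 in EP of Pokkali. In each of the 3 families other listed loci had NP at least 2-fold above EP in both cultivars without meeting the rule. The counts, these loci included, were 3 of 5 for PLATZ, 28 of 69 (40.6%) for AP2-EREBP and 5 of 9 for C2C2-CO-like, again beside 25.3% of all listed factors and 10.8% of the expressed loci.

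*OsJMT2* (LOC_Os06g22440, chr6:13041900-13044183) was the only one of the 76 in the study's hormone list of 134 genes, under jasmonate biosynthesis, and most of the 76 have no name. In Arabidopsis the enzyme JMT methylates jasmonic acid to methyl jasmonate. *OsJMT2* had 5.15 FPKM in NP and 0.0690 in EP of Swarna, and 7.59 in NP of Pokkali, where it was listed at 0 in EP, so it lay near the NP minimum in both cultivars. Of the 17 listed jasmonate biosynthesis genes, 4 (23.5%) had NP at least 2-fold above EP in both cultivars and 2 (11.8%) at least 2-fold below, beside 25.4% and 21.6% of the 134 genes of the whole hormone list. Of the 8 listed jasmonate signaling genes, which encode JAZ repressors, 7 had NP at least 2-fold above EP in both, and none met the rule. None of the 42 carbohydrate, 24 cellulose synthase and synthase-like, 11 lignin and 76 anther or pollen genes listed by the study met the rule either. Only 0.397% of the expressed loci met it, and for lists this short nothing is read from the absence. Of the 42 carbohydrate genes, 17 (40.5%) had NP at least 2-fold above EP in both cultivars and 3 (7.14%) at least 2-fold below. Over all expressed loci these shares were 10.8% and 11%. The study listed these genes because they differed between these samples, so the comparison is not independent. Taken in 1 cultivar at a time, 5 of the 42 carbohydrate genes met the rule in Swarna and 1 in Pokkali. Of the expressed loci, 2.49% and 1.16% did so, and nothing is read from the counts of a list chosen in this way.

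**Figure D2:**
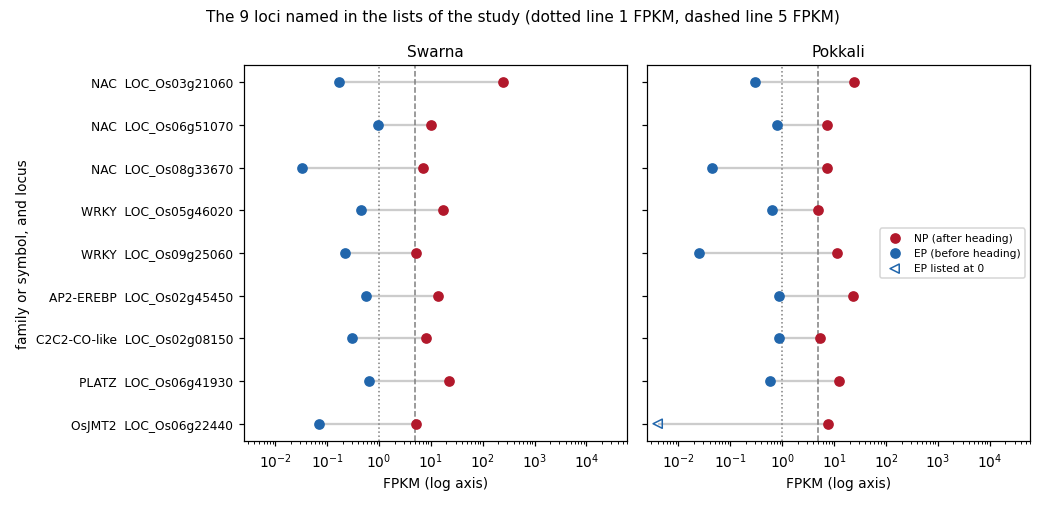
FPKM on a log axis of the 9 loci that the lists of the study name, Swarna on the left and Pokkali on the right, with NP in red, EP in blue and an open triangle for a value listed at 0. The NAC locus LOC_Os03g21060 stands apart in Swarna NP at 244 FPKM, and the other 8 loci lie between 5.01 and 23.4 FPKM in all their NP groups.

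The rule set a lower limit to both NP values but not their order, and the cultivars differed in it. On log2 of FPKM plus 0.5, 32 of the 76 loci (42.1%) were at least 2-fold higher in Swarna NP than in Pokkali NP, 10 (13.2%) were at least 2-fold higher in Pokkali NP, and 34 lay within 2-fold. Among the 8586 loci at 5 FPKM or more in both NP groups, 20.8% were at least 2-fold higher in Swarna NP and 11.4% at least 2-fold higher in Pokkali NP, and over all expressed loci these shares were 20.4% and 20.3%. The median log2 ratio of Swarna to Pokkali was 0.81 over the 76 loci and 0.24 over those 8586. Swarna NP had the higher value in 56 of the 76 loci and Pokkali NP in 20. This count was not made over the 8586 loci, whose median ratio also lay on the Swarna side. With only 1 value per group, whether these shares exceed the spread between libraries was not tested.

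**Figure D3:**
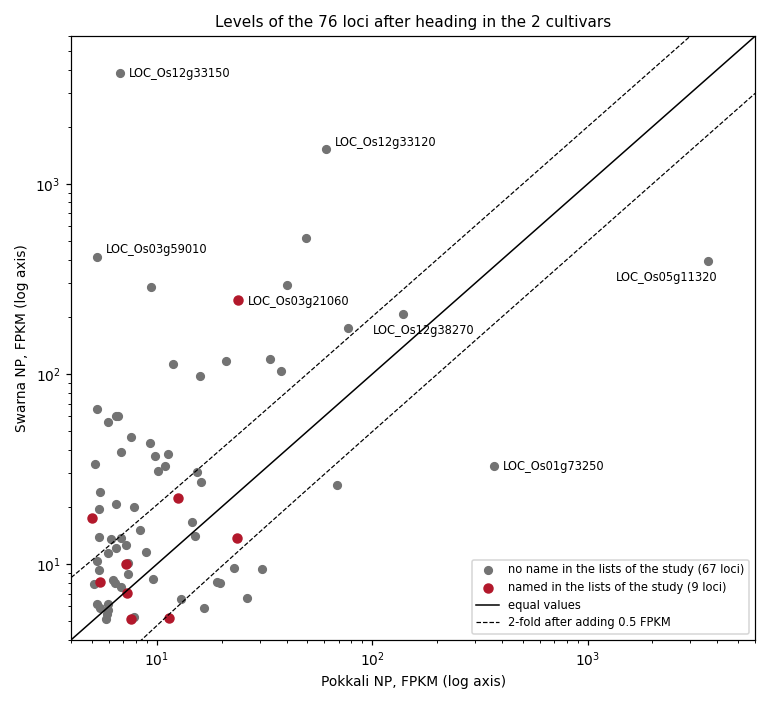
FPKM of the 76 loci in Swarna NP against Pokkali NP on log axes, with the line of equal values and dashed lines at 2-fold on the scale with 0.5 FPKM added, and the 9 loci named by the lists of the study in red. More points lie above the upper dashed line (32) than below the lower one (10), and the highest values of each cultivar belong to different loci.

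The 32 loci higher in Swarna had a median NP value of 57.8 FPKM in Swarna and 8.55 in Pokkali. The difference was largest at LOC_Os12g33150 (chr12:20058110-20059580), the most abundant of the 76 loci in Swarna NP, which had 3852 FPKM in NP and 0.689 in EP of Swarna, but 6.71 in NP of Pokkali and a value of 0 in its EP. LOC_Os03g59010 (chr3:33591195-33592077) had 416 FPKM in Swarna NP, where its EP value was 0, and 5.26 in NP and 0.0159 in EP of Pokkali. Both lay just above the minimum in Pokkali NP, and a minimum of 10 FPKM would have left both out. LOC_Os01g72900 (chr1:42280991-42281973) had 287 FPKM in NP and 0.840 in EP of Swarna, and 9.38 in NP and 0.443 in EP of Pokkali. LOC_Os08g02700 (chr8:1127882-1129553) had 65.2 FPKM in NP and 0.790 in EP of Swarna, and 5.27 in NP and 0.520 in EP of Pokkali. In 7 of the 32 the NP values differed 10-fold or more on the scale with 0.5 added.

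The 10 loci higher in Pokkali had a median NP value of 8.74 FPKM in Swarna and 24.6 in Pokkali. LOC_Os01g73250 (chr1:42460555-42462334) differed most, with 33.0 FPKM in NP and 0.0167 in EP of Swarna, and 367 in NP of Pokkali, where it was listed at 0 in EP. It was followed by LOC_Os05g11320, whose values are given above. LOC_Os12g43450 (chr12:26960487-26961405) had 6.67 FPKM in NP and 0.158 in EP of Swarna, and 26.2 in NP and 0.227 in EP of Pokkali. LOC_Os01g55200 (chr1:31761223-31763887) had 9.44 FPKM in NP and 0.190 in EP of Swarna, and 30.6 in NP and 0.185 in EP of Pokkali. LOC_Os05g05070 (chr5:2467724-2468084), one of the shortest loci at 361 bases, had 26.0 FPKM in NP and 0 in EP of Swarna, and 68.9 in NP and 0.106 in EP of Pokkali. An EP value of 0.5 or more was found in 2 of these 10 loci, and in 17 of the 32 that were higher in Swarna.

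The 34 loci within 2-fold between the cultivars had a median NP value of 9.09 FPKM in Swarna and 7.19 in Pokkali. They include the 17 loci below 10 FPKM in both NP groups, which the rule places there, since values between 5 and 10 FPKM cannot lie 2-fold apart on this scale. Of the 8 transcription factors, 5 were among the 34. For comparison, the mirrored rule (5 or more in both EP groups and below 1 in both NP groups) was met by 231 loci, 1.21% of the expressed loci. Of these, 198 (85.7%) lay within 2-fold between Swarna EP and Pokkali EP, against 44.7% of the 76 loci between the NP groups. Over all loci at 5 FPKM or more in both NP groups, 67.8% lay within 2-fold. This share was not counted over loci at 5 FPKM or more in both EP groups. In the study, EP samples of the cultivars correlated more closely, whereas their NP samples stood apart. Whether the contrast between the mirrored loci and the 76 belongs to these sets or to the stages was not tested.

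Most loci that met the rule in 1 cultivar did not meet it in the other. Taken in 1 cultivar alone, it was met by 476 loci in Swarna (2.49% of the expressed loci) and by 221 in Pokkali (1.16%). The shared 76 loci are 16% of the Swarna loci, against the 1.16% of all expressed loci that met the rule in Pokkali. They are 34.4% of the Pokkali loci, against the 2.49% of all expressed loci that met it in Swarna. Of the 400 loci that met it in Swarna alone, 313 were below 1 FPKM in Pokkali EP but did not reach 5 in Pokkali NP, 51 reached 5 there but were already at 1 or more in EP, and 36 failed on both counts. Of the 145 loci that met it in Pokkali alone, 65 did not reach 5 FPKM in Swarna NP, 68 were already at 1 or more in Swarna EP, and 12 failed on both counts. In the other cultivar, 231 of the 400 were at least 2-fold higher in NP than EP in Pokkali, against 15.9% of all expressed loci, and 106 of the 145 were so in Swarna, against 26.6%.

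**Figure D4:**
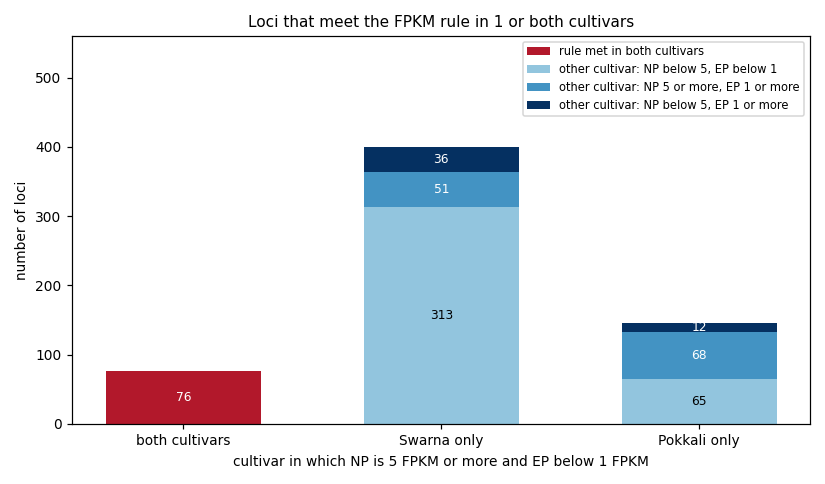
Number of loci that met the rule in both cultivars (76), in Swarna alone (400) and in Pokkali alone (145), the bars of 1 cultivar divided by how the other cultivar failed. Most loci of Swarna alone were below 5 FPKM in Pokkali NP with an EP value below 1 (313), whereas those of Pokkali alone were divided between too low an NP value in Swarna (65) and too high an EP value (68).

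Position on the genome was not used by the rule. The 76 loci lay on all 12 chromosomes, with 2 to 11 on each. They were 0.137% of the expressed loci of chromosome 2, the lowest share, and 0.704% of those of chromosome 6, the highest. Of the 76, 5 had another of the 76 within 50 kb. This count was not made for other sets of loci and is not read as clustering. A group of 3 on chromosome 12 consisted of LOC_Os12g33120 (chr12:20042285-20043114), LOC_Os12g33130 (chr12:20045554-20046313) and LOC_Os12g33150, with gaps of 2.44 and 11.8 kb between their spans. In Swarna NP they had 1535, 295 and 3852 FPKM, and in Swarna EP 0.151, 0.0210 and 0.689. In Pokkali NP they had 61.1, 40.1 and 6.71 FPKM, and all 3 were listed at 0 in Pokkali EP. Their sum was 59.1% of the summed FPKM of the 76 loci in Swarna NP and 2.09% in Pokkali NP, and their order differed between the cultivars. The loci around them did not all share this pattern. LOC_Os12g33140, between the second and the third, had 0.0231 FPKM in Swarna NP and 0 in the other groups, LOC_Os12g33110 was listed at 0 in all 4, and LOC_Os12g33100 had 56.7 FPKM in NP and 26.6 in EP of Swarna, and 17.0 in NP and 31.8 in EP of Pokkali.

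**Figure D5:**
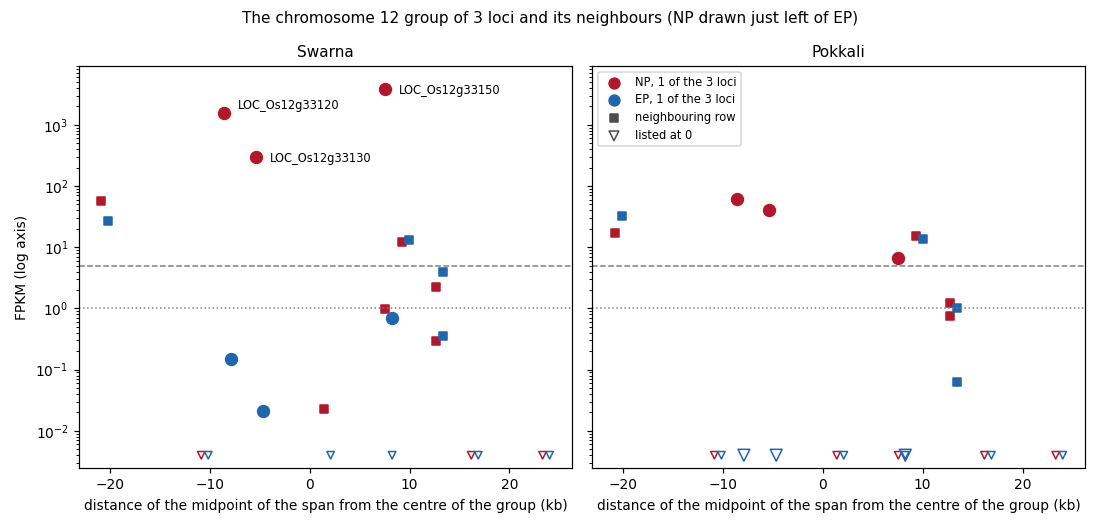
FPKM on a log axis of the 3 neighbouring loci on chromosome 12 (large circles) and of the rows around them (squares), by the distance in kb of the midpoint of each span from the centre of the group, Swarna on the left and Pokkali on the right, NP in red and EP in blue, open triangles listed at 0. In Swarna NP the 3 loci reach 295 to 3852 FPKM, and the rows between and beside them stay at 56.7 or lower.

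The other neighbours were a pair on chromosome 6, LOC_Os06g51060 (chr6:30890674-30892066) and the NAC locus LOC_Os06g51070, 1.41 kb apart. LOC_Os06g51060 had 5.91 FPKM in NP and 0.510 in EP of Swarna, and 16.5 in NP and 0.304 in EP of Pokkali, whereas the NAC locus had its higher NP value in Swarna, within 2-fold of Pokkali. The named loci directly beside the 76 numbered 148, of which 71 were expressed. At 15 of these 71 (21.1%) NP was at least 2-fold higher than EP in both cultivars, against 10.8% of all expressed loci. At 4 (5.63%) it was at least 2-fold lower, against 11%. Beside the loci of the mirrored rule, 245 flanking loci were expressed. NP was at least 2-fold higher than EP in both cultivars at 7.76% of them and at least 2-fold lower at 11.8%. Flanking loci can overlap or run into their neighbours, and the part of this in these shares was not tested.

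The 76 loci were short in genomic span. Their spans, the stretch from the first to the last base of the assembled locus, had a median of 2095.5 bases, against 4214.5 over the expressed loci. Spans under 1000 bases were found in 14 of them (18.4%), against 4.81% of the expressed loci, and LOC_Os02g36530 (chr2:22065229-22065520) was the shortest at 292 bases. FPKM is divided by the length of the transcript, so a short transcript reaches 5 FPKM with fewer fragments, and its value is less precise. The span also counts introns, and transcript lengths were not available, so this was not tested for these loci. The 14 short loci had a median NP value of 49.0 FPKM in Swarna and 13.5 in Pokkali, above the medians of all 76. At the other end, LOC_Os10g08474 spanned 190879 bases and covered many other named loci, with 8.27 FPKM in NP and 0.0263 in EP of Swarna, and 6.28 in NP and 0.00753 in EP of Pokkali.

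The merged assembly gave 29 of the 76 loci (38.2%) more than 1 row, against 26.1% of the expressed loci. All 32 further rows had the same span as the row used, and the table does not give their strand. They were below 1 FPKM in all groups in 22 cases, and none met the rule. An EP value of 1 or more occurred in 1 of them, at LOC_Os11g04990, whose further row was at 8.26 to 11.8 FPKM over the groups while the row used had 38.8 FPKM in NP and 0.526 in EP of Swarna, and 6.84 in NP and 0.0662 in EP of Pokkali. The low EP values of LOC_Os11g04990 therefore hold for 1 of its rows only. In addition, 10 of the 76 were overlapped by a row of another name, and in 8 of these the overlapping row had 1 FPKM or more in an EP group. At LOC_Os09g12650, a row that names this locus together with its neighbour had 82.7 FPKM in NP and 61.8 in EP of Swarna, and 607 in NP and 79.3 in EP of Pokkali, whereas the row used had 12.6 in NP and 0.495 in EP of Swarna, and 7.23 in NP and 0.812 in EP of Pokkali. Without the 10 overlapped loci, 66 remained, with a median NP value of 20.4 FPKM in Swarna and 9.34 in Pokkali.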

How the data were processed

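Peduncles of 2 rice cultivars were sequenced after (NP) and before (EP) heading, as 4 groups of 3 libraries. Reads were filtered by the authors (NGSQC Toolkit) and mapped with HISAT2 (version 2.1.0) on release 7 of the Rice Genome Annotation Project, the build of all coordinates given. Transcripts came from StringTie (version 1.3.3b) and Cuffmerge, FPKM from Cufflinks and differential expression from Cuffdiff. The deposited values are FPKM, 1 per assembled row and group, and were used without further scaling. They hold no counts, so the counting precision of a value is not given, and the read totals of the study were not used here. All columns were used.

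Loci were taken by the rule given at the opening. Ratios are log2 of FPKM plus 0.5, with a 2-fold minimum in place of a test, since group values allow none. Positions are spans of assembled loci, counted from 1. Members and lists were chosen with earlier results of these data known. Loci were named where a list of the study names them, where they had the 10 highest smaller NP values, the 5 largest or 5 smallest ratios of Swarna to Pokkali in NP, values nearest a threshold, 0 in both EP groups, or a neighbour within 50 kb. LOC_Os05g05070 was among the first of these, and LOC_Os07g37920, the neighbours, the shortest and longest loci and those with several or overlapping rows were singled out after their values were seen. The reference table carries no identifiers of this annotation, so planned descriptions, tissue markers and promoter motifs were not used here. Python 3.11.15, numpy 2.4.6, pandas 2.3.3 and matplotlib 3.10.9 were used, and the code was tested on simulated data.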

Additional observations from a re-analysis of the deposited data

Results flagged for a closer look

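The description above is restricted to rows that name a single locus. Outside it, 3 assembled rows with no locus name met the same rule, and 6 rows that name several loci did. The highest of the 3 unnamed rows lay on chromosome 7, with 62.0 FPKM in NP and 0.121 in EP of Swarna, and 61.0 in NP and 0 in EP of Pokkali. It ended 77 bases before a row that names LOC_Os07g37454 and LOC_Os07g37470, which also met the rule with 38.7 FPKM in NP and 0.0382 in EP of Swarna, and 30.4 in NP and 0.111 in EP of Pokkali. A second unnamed row on chromosome 7 had 41.1 FPKM in NP and 0.0438 in EP of Swarna, and 53.4 in NP and 0.537 in EP of Pokkali, 2.99 kb from a row that names LOC_Os07g07290 and LOC_Os07g07300, with 87.2 in NP and 0.0751 in EP of Swarna, and 7.65 in NP and 0.0121 in EP of Pokkali. The row that names LOC_Os04g08824 and LOC_Os04g08828 had 10.7 FPKM in NP and 0.0310 in EP of Swarna, and 249 in NP and 0.0328 in EP of Pokkali. None of these 9 rows lay within 50 kb of one of the 76 loci.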

How the results depend on the processing

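The number of loci moved most with the thresholds and the scaling. It was 23 with an NP minimum of 10 FPKM, 42 with an EP maximum of 0.5, and 48 when the columns were scaled to equal sums, and it stayed between 61 and 87 under the other alternatives, 2 of which (leaving out overlapped loci, adding rows with several names or none) were chosen after seeing the data. Summing all rows of a locus gave 74 loci, of which 73 were among the 76. Scaling to equal sums moved the median log2 ratio of NP to EP over all expressed loci by -0.77 in Swarna and -0.18 in Pokkali. The listed transcription factors, 8 among the 76, numbered 3 under each of the stricter thresholds, 5 under equal sums and under median ratios, and 11 after quantile normalization. The median log2 ratio of the 76 loci is positive by the rule. In Swarna it was 5.62 and 3.69 with 0.1 and 1 FPKM added, and 4.23, 3.83 and 4.35 after scaling by median ratios, equal sums and quantiles. In Pokkali these values were 4.96 and 2.88, and 3.57, 3.53 and 3.54. The number at least 2-fold higher in Swarna NP stayed between 30 and 32 under the added constants and the scalings and was 25 at a 3-fold minimum. The number higher in Pokkali NP stayed between 9 and 12 and was 4 at 3-fold. Neighbours within 20 kb numbered 5 and within 100 kb 7. No paired analysis was possible because the values are group values without libraries, and for the same reason no library could be left out. Values near the thresholds decide membership, and their error is not known.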

Other observations

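Several named genes missed the rule in 1 cultivar only, and were chosen from the lists of the study after their values were seen. *OsJAZ9*, a jasmonate signaling repressor, had 50.5 FPKM in NP and 0.499 in EP of Swarna, and 1.3 in NP and 0.0308 in EP of Pokkali. *OsLOX2;3*, a lipoxygenase of the jasmonate biosynthesis list, had 33.6 FPKM in NP and 0.0708 in EP of Swarna, and 0.323 in NP and 0.0297 in EP of Pokkali. *OsJAZ6* failed through Swarna, with 46.2 FPKM in NP and 2.88 in EP, although Pokkali had 6.53 in NP and 0.439 in EP. The gibberellin biosynthesis gene *GA20ox1* had 3.06 FPKM in NP and 0.402 in EP of Swarna, and 15.2 in NP and 0.119 in EP of Pokkali. The difference between the cultivars was not tested for any of them.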
